A study of Mus musculus with 10 samples.

Results

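The transcription factors that set the lineage of T helper cells were read in CD4+ splenocytes of mice with abdominal sepsis and of mice after sham surgery. They are Tbx21, Eomes, Gata3, Rora, Bcl6, Prdm1, Runx1, Runx3 and Hlx. A probe set, the group of short probes designed against 1 target sequence on an Affymetrix array, was taken when the platform annotation gave it exactly 1 gene symbol and that symbol was 1 of these 9. This gave 25 of the 45101 probe sets in the table, or 9 of 18193 genes, with between 1 and 9 probe sets for each. Signal was high enough for a test in 23 of the 25, and each of the 9 genes had at least 1 tested probe set.

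The CLP group was 5 C57Bl/6 mice whose cecum was tied off and punctured (cecal ligation and puncture), a model of sepsis from the gut. The sham group was 5 C57Bl/6 mice whose cecum was only lifted out and handled. All were 8 to 12 weeks old, were operated on under halothane, and gave their spleens 6 h after surgery. Negative selection with magnetic beads left a population that was about 91% CD4+ per the series' design text. Each array holds 1 mouse, which gives 5 mice a group, and each signal is a mean over all the cells of that mouse's sample.

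Naive CD4+ T cells become different kinds of helper cell under cytokine signals, and each kind is held in place by a lineage factor. T-bet (Tbx21) drives Th1 cells, which make interferon gamma, with help from Runx3, Hlx and its relative Eomes. GATA3 drives Th2 cells and is also needed by all CD4+ T cells as they develop, ROR alpha (Rora) acts beside ROR gamma t in Th17 cells, and Bcl6 directs follicular helper cells, with Blimp-1 (Prdm1) as its opponent.

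Tbx21, Eomes and Gata3 are the factors whose probe sets were all lower on average in CLP arrays, and the promoter window of each in RefSeq (GRCm38.p6) is shown for that reason. Each window runs from 250 bases before the start of the transcript, in lower case, through its first 50 bases, in capitals. Tbx21 is on chromosome 11, with its window at chr11:97115282-97115581 on the minus strand. Eomes is on chromosome 9, at chr9:118477939-118478238 on the plus strand. Gata3 is on chromosome 2, at chr2:9878551-9878850 on the minus strand. The annotated Gata3 gene spans 9857078 to 9887953, so its window is at a transcript start inside the gene and not at its upstream end.
Tbx21: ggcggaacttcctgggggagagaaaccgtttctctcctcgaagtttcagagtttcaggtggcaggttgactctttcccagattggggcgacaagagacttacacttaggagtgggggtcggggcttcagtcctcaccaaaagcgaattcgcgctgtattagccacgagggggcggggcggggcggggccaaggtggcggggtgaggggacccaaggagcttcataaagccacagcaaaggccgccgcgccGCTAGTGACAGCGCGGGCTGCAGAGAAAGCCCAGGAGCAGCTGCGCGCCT
Eomes: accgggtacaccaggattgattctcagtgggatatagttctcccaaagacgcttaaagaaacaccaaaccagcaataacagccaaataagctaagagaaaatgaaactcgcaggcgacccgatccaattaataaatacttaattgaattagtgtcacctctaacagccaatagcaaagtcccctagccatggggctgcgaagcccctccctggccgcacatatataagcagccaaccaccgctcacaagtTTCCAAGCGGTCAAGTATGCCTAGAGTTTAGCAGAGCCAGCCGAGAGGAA
Gata3: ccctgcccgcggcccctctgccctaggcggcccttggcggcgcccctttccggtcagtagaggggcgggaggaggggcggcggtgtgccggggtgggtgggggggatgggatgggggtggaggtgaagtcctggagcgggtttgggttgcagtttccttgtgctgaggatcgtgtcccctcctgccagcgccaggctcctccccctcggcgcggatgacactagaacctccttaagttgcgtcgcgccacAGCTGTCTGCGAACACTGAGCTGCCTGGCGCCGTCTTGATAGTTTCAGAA
The 3 windows differed in base composition, with 62% G and C in that of Tbx21, 47.3% in that of Eomes and 67.3% in that of Gata3. Both strands were searched for 5 short strings that the factor families or STATs are known to bind. The T-box half-site GTGTGA was in none of the 3 windows and in 14.5% of all 32851 promoter windows. The other strings were absent from the 3 as well. The RUNX string was TGTGGT, which 16.8% of all windows held. For GATA factors it was AGATAA, with a share of 11.2%. That of ROR half-sites was AGGTCA, in 16.3%. For STATs it was TTCNNNGAA, in 8.30%.

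The windows of the RUNX genes held a shared string, shown because Runx1 and Runx3 are paralogs that bind the same DNA. All 9 genes had at least 1 window, 12 in all, and the RUNX string occurred in 2 of the 12. The T-box half-site occurred in the same Runx1 window, the STAT string in 2 windows of Bcl6, and those of GATA and ROR in none. The capitals mark the RUNX string as it reads on the opposite strand.
Runx3: ccctcaACCACAgaACCACAaggcca
Runx1: taaacaACCACAgaACCACAagttgg
The Runx3 stretch is at chr4:135120505-135120530 on the plus strand and its matches start 134 and 126 bases before the transcript start. The Runx1 stretch is at chr16:92826027-92826052 on the minus strand and its matches start 28 and 36 bases after it. A pair of this string on 1 strand with starts 8 bases apart occurred in 7 of the 32851 windows (0.0213%), and those of Runx1, Runx2 and Runx3 were among the 7. The search for pairs was added after the matches were seen.

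The deposited values are linear intensities, scaled here to a common array median, and signals below are on this scale. Levels of different probe sets cannot be set against each other, since probes differ in brightness. Signals under 70.4 were set to that floor before log2 was taken. Array medians before scaling lay between 127.6 and 142.4. The number of arrays, 5 a group, and the spread between them limit the precision. The arrays fell into classes by the 18S ribosomal RNA control. In 6 arrays, replicates 1, 3 and 5 of both groups, its signal lay between 3134 and 5178, and in 4 arrays, replicates 2 and 4 of both groups, between 194 and 268. The ratio of 3 prime to 5 prime Gapdh control signal was 20.7 to 29.5 in the high 18S arrays and 9.45 to 13.4 in the low ones. T cell markers were bright in all arrays: Cd4 lay between 1553 and 1876 in CLP arrays and between 1432 and 2400.1 in sham arrays. They were not level, since 10 of 11 measured genes of CD4 T cell identity were lower on average in CLP arrays. Their median log2 fold change, CLP over sham, was -0.26, and none passed the test below. No gene passed the test below among the markers of B cells (8 measured), monocytes and macrophages (7), neutrophils (9), dendritic cells (5), erythroid cells (5) and platelets (6). Vcam1 and Cd14 (monocytes and macrophages), Slc4a1 (erythroid) and Itgb3 (platelets) had an unadjusted limma p under 0.05. Lower on average in CLP arrays were Vcam1 (108 to 347, sham 272 to 735) and Itgb3 (574 to 860, sham 887 to 1108). Higher were Cd14 (265 to 581, sham 237 to 360) and Slc4a1 (496 to 2964, sham 175 to 1318). Their limma adjusted p lay between 0.134 and 0.364. The lists of B cells, neutrophils and dendritic cells held none. Neutrophil signals summed to between 3370 and 17188 in CLP arrays and between 4652 and 12225 in sham arrays, and B cell signals to between 3357 and 6233 in CLP arrays and between 3220 and 5301 in sham arrays. The sums were 3629 to 4521 in CLP and 3033 to 4706 in sham arrays for monocytes and macrophages, 952 to 1263 in CLP and 925 to 1072 in sham for dendritic cells, 2080 to 6707 in CLP and 1470 to 3301 in sham for erythroid cells, and 1415 to 1813 in CLP and 1813 to 1932 in sham for platelets. Bright probe sets weigh most in these sums. Higher and lower on average in CLP arrays were 5 and 1 platelet markers, 6 and 3 of neutrophils, and 5 and 3 of B cells. They were 4 and 3 of monocytes and macrophages, 3 and 2 of dendritic cells, and 4 and 1 of erythroid cells. The median log2 fold change was 0.11 for platelets, 0.52 for neutrophils, 0.15 for B cells, 0.44 for erythroid cells and 0.01 for the others.

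Among the 23 tested probe sets, 2 fell in CLP mice and none rose over all 27022 probe sets tested (limma, adjusted p under 0.05). These were the probe set of Tbx21 and 1 of the 8 tested probe sets of Rora. Over all probe sets 0.537% passed as lower and 0.167% as higher, and 0.703% in either direction. The members' median log2 fold change, CLP over sham, was 0.03, beside 0.00 over all probe sets tested. Among the members 2 of 23 were called lower, and no test of the list was made. The members were chosen with earlier results of these data known. Of the 23 probe sets 8 belong to Rora and 6 to Runx1, so they are not separate units. Their share beside that background is a description only. All CLP arrays lay below all sham arrays in 3 of the 23, beside 2.11% of all tested probe sets, and above them in 0, beside 0.862%. At an unadjusted p under 0.05 the fit held 5 of the 23, all lower in CLP arrays, and 2951 of 27022 overall.

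**Figure D1:**
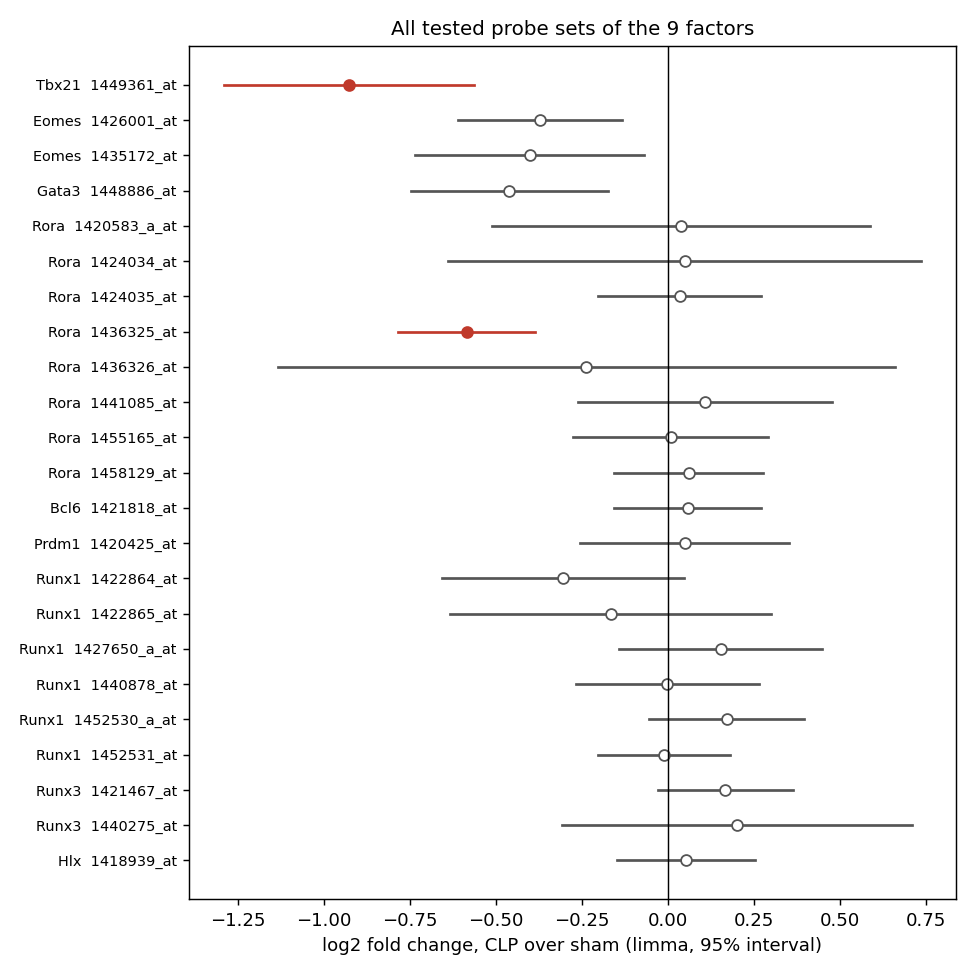
Log2 fold change of CLP over sham for each of the 23 tested probe sets, with its 95% interval from limma (n = 5 mice per group). Filled red points passed at an adjusted p under 0.05. Tbx21 and 1436325_at of Rora passed, Eomes and Gata3 lie below 0 without passing, and the intervals of the other probe sets include 0.

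Tbx21, the factor of Th1 cells, fell in CLP mice, with every CLP array below every sham array. Its probe set 1449361_at read 254, 204, 253, 330.3 and 180.1 in CLP replicates 1 to 5, against 351, 472, 478, 540.0 and 452 in sham replicates 1 to 5. The nearest arrays were CLP replicate 4 and sham replicate 1. The mean log2 signal was 7.90 ± 0.34 in CLP arrays and 8.83 ± 0.23 in sham arrays (SD, n = 5 each), a log2 fold change of -0.93 ± 0.17 (SE) with a limma adjusted p of 0.0358. That is 1.90-fold lower in CLP mice. In a bulk sample a smaller share of Tbx21-expressing cells and less Tbx21 RNA per cell cannot be told apart.

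The size of the Tbx21 difference was alike in both 18S classes, and its call depended on single arrays. It was -0.90 among the high 18S arrays (3 CLP, 3 sham, limma adjusted p = 0.0875) and -0.96 among the low ones (2 CLP, 2 sham, adjusted p = 0.575), and with the class as a block the adjusted p was 0.0182. Tbx21 passed without CLP replicate 1 or CLP replicate 4. It did not pass without CLP replicate 2 (-0.87), CLP replicate 3 (-0.95) or CLP replicate 5 (-0.82). The same held without sham replicate 1 (-1.02), sham replicate 2 (-0.91), sham replicate 3 (-0.91), sham replicate 4 (-0.86) or sham replicate 5 (-0.93), and the adjusted p of these 8 lay between 0.051 and 0.117 by limma. With dim probe sets kept in the test, it was 0.134.

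NK cells and cytotoxic T cells also express Tbx21. Ncr1, the receptor that defines mouse NK cells, had 1 probe set, which stayed at or under 61.1 on all 10 arrays, below the floor. Klre1, another listed NK marker too dim to be tested, reached 112. Klrd1 read 827 to 1423 in CLP arrays and 1269 to 1994 in sham arrays. A dark probe set does not show that NK cells were absent. Of 8 measured NK and cytotoxic markers 4 were higher and 4 lower, 1 rose (Gzmb) and none fell. At an unadjusted p under 0.05 there were 4, of which Gzmb was higher and Klrg1, Klrd1 and Nkg7 were lower, as Tbx21 was. Over all probe sets tested that p was reached by 2951 of 27022. The summed signal of the 8 was 4074 to 5142 in CLP arrays and 4126 to 4732 in sham arrays. In that sum Gzmb averaged 1200 in CLP and 462 in sham arrays, and Klrd1 averaged 1114 in CLP and 1621 in sham arrays. Nkg7, a cytotoxic granule protein, read 825 to 925 in CLP arrays and 936 to 1091 in sham arrays (log2 fold change -0.24 ± 0.08, limma adjusted p = 0.205). Klrg1, a receptor of NK and effector T cells, gave -0.35 ± 0.11 (adjusted p = 0.179). Klrd1 (CD94), an NK receptor chain, gave -0.54 ± 0.17 (adjusted p = 0.195), and the part of these cells in the Tbx21 value was not tested.

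**Figure D2:**
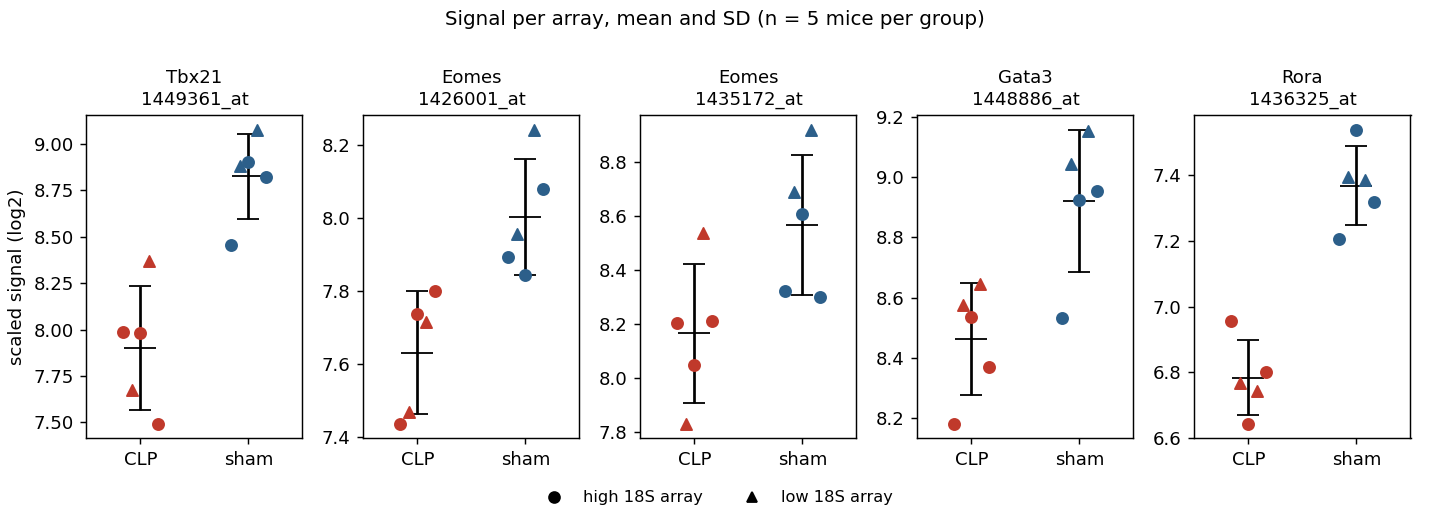
Scaled log2 signal of the 5 probe sets with an unadjusted p under 0.05, 1 point per array, CLP left and sham right, with the group mean and SD (n = 5 mice each). Circles are high 18S arrays and triangles low ones. CLP and sham points do not overlap for Tbx21, Eomes 1426001_at and Rora 1436325_at, and they overlap for Eomes 1435172_at and Gata3.

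Eomes, the T-box relative of T-bet and best known from CD8+ memory and NK cells, was lower on average by both of its probe sets without passing. Probe set 1426001_at read 173, 177, 213, 210.2 and 223 in CLP arrays, against 238, 248, 229.7, 303 and 270.4 in sham arrays. These groups did not overlap, and the log2 fold change was -0.37 ± 0.11 (SE, limma adjusted p = 0.16). Probe set 1435172_at read 295, 228, 265, 372 and 296 in CLP arrays, against 320.2, 413, 390.4, 485 and 316 in sham arrays, and CLP replicate 4 reached into the sham range. Its value was -0.40 ± 0.15 (adjusted p = 0.313). Both were smaller among the high 18S arrays, at -0.28 and -0.26, than among the low ones, at -0.51 and -0.62, a difference between classes that was not tested. Cd8a, which marks CD8+ T cells, differed by 0.09 ± 0.11 (adjusted p = 0.896).

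Gata3, the factor of Th2 cells, read 289.9, 382, 371, 401 and 331 in CLP arrays, against 369.9, 528, 486, 570.3 and 496 in sham arrays. Sham replicate 1 lay among the CLP arrays, and the other 4 sham arrays lay above all of them. The log2 signal averaged 8.46 ± 0.19 in CLP arrays and 8.92 ± 0.24 in sham arrays (SD, n = 5 each). The log2 fold change of -0.46 ± 0.13 (SE) had a limma adjusted p of 0.147. It was -0.44 among the high 18S arrays and -0.49 among the low ones. With the class as a block Gata3 passed (adjusted p = 0.043), a fit in which 2.01% of all probe sets passed as lower and 2.66% in either direction. Leaving out sham replicate 1 gave -0.56, still without passing (adjusted p = 0.0797).

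Tbx21 lay lower against both of these factors in CLP arrays. Taking the log2 signal of Tbx21 minus that of Gata3, relative to the sham mean of that difference, CLP replicates 1 to 5 stood at -0.10, -0.81, -0.46, -0.18 and -0.78, against 0.02, -0.07, 0.07, 0.02 and -0.04 in sham replicates 1 to 5. The sham arrays thus stayed within a narrow band and the CLP arrays spread widely below it. Tbx21 minus Eomes (1435172_at) stood at -0.48, -0.42, -0.33, -0.43 and -0.98 in CLP arrays, against -0.13, -0.07, 0.03, -0.10 and 0.26 in sham arrays. Neither pair overlapped between the groups, and no test was made of these differences. In the Gata3 pair CLP replicate 1 and sham replicate 2 nearly met. Tbx21 by itself already separated the groups, and the share of other gene pairs that separate was not counted. Both other pairs read in this way, Bcl6 minus Prdm1 and Runx3 minus Runx1, overlapped.

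Rora was covered by 9 probe sets, which did not move together. Probe set 1436325_at read 124.28, 109.09, 100.01, 107.21 and 111.66 in CLP arrays, against 147.81, 168.12, 185.89, 167.04 and 159.53 in sham arrays. No array crossed between the groups, and each group was tight. The mean log2 signal was 6.78 ± 0.11 in CLP arrays and 7.37 ± 0.12 in sham arrays (SD, n = 5 each). The log2 fold change was -0.58 ± 0.09 (SE, limma adjusted p = 0.0234), 1.5-fold lower in CLP mice. It was -0.55 among the high 18S arrays (adjusted p = 0.124) and -0.63 among the low ones (adjusted p = 0.447). The signal is dim, with the floor at 6.14 on the log2 scale.

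Leaving out CLP replicate 1, CLP replicate 4, sham replicate 1 or sham replicate 5 kept that call. It was lost without CLP replicate 2 (-0.58), CLP replicate 3 (-0.55) or CLP replicate 5 (-0.59). It was also lost without sham replicate 2 (-0.58), sham replicate 3 (-0.54) or sham replicate 4 (-0.58), with an adjusted p between 0.0612 and 0.0928 over these 6. The value itself moved by less than 0.05 in all 10. With dim probe sets kept in the test the call was lost as well (adjusted p = 0.0647).

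The other 7 tested probe sets of Rora lay between -0.24 and 0.11, none passing (limma adjusted p of 0.929 or more). Probe set 1436326_at, which the annotation ties to the same target sequence as 1436325_at, read 292, 172, 615, 178 and 547 in CLP arrays, against 501, 220.1, 571, 235 and 461 in sham arrays. Here the high and low arrays were those of the 18S classes, 292 to 615 against 172 to 235, and not those of the groups (log2 fold change -0.24, 95% interval -1.13 to 0.66). The classes were also separated in 1424034_at, the brightest, with 375 to 642 in high 18S arrays and 215 to 323 in low ones, and in 1420583_a_at, with 186 to 302 and 133 to 163. Their fold changes between the groups were 0.05 (-0.64 to 0.73) and 0.04 (-0.51 to 0.59). In 1424035_at, 1441085_at, 1455165_at and 1458129_at the 95% intervals ran from -0.27 at the lowest to 0.48 at the highest. The ninth probe set, 1458145_at, was not tested: it read 49.8 to 64 in CLP arrays and 50.8 to 55.1 in sham arrays, all under the floor. With the 8 tested probe sets averaged Rora gave -0.07 ± 0.16 (adjusted p = 0.925).

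**Figure D3:**
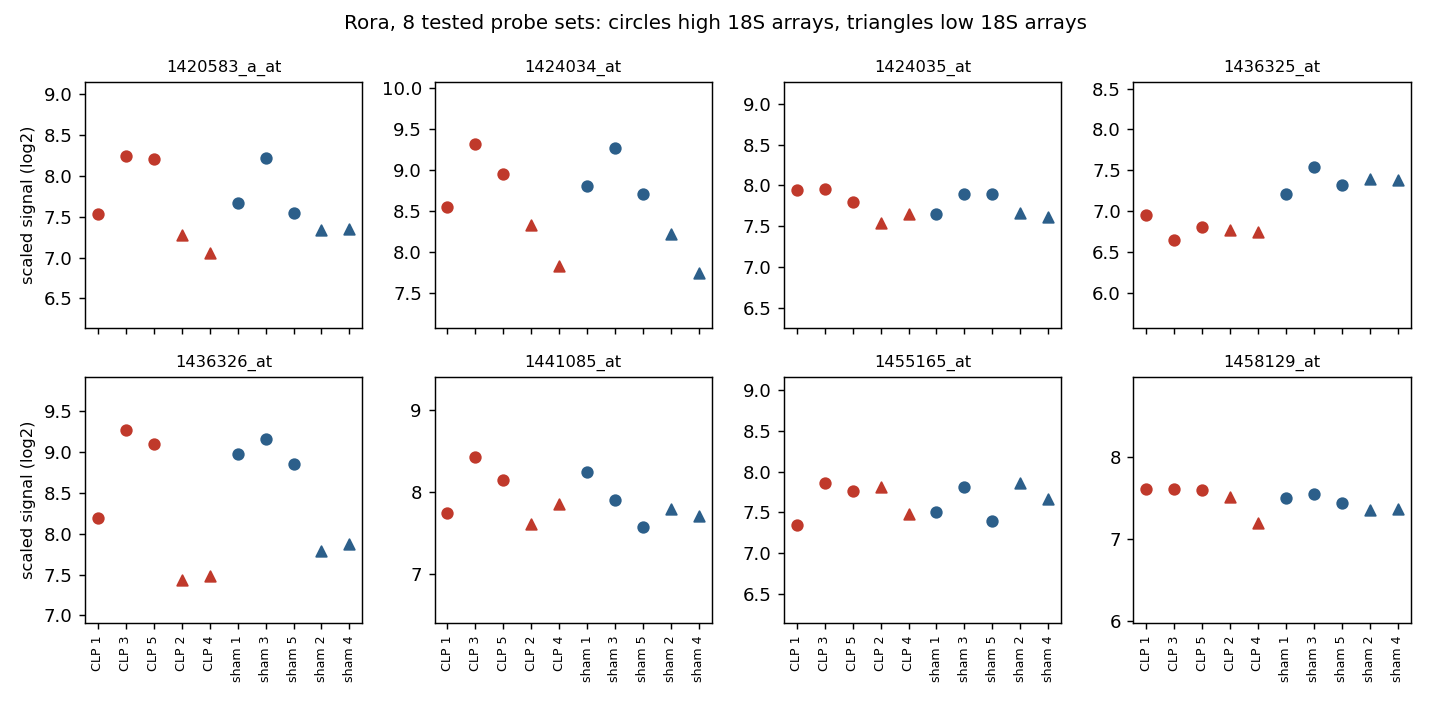
Scaled log2 signal of the 8 tested Rora probe sets on each array, CLP arrays (red) left of sham arrays (blue), each panel spanning 3 log2 units. Circles are high 18S arrays and triangles low ones. In 1436325_at the groups are apart and the classes mixed, while in 1436326_at, 1424034_at and 1420583_a_at the circles lie above the triangles in both groups.

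Over the 23 tested probe sets, 5 were separated by 18S class, beside 11.7% of all tested probe sets. They were the 3 of Rora above, 1440275_at of Runx3 and 1440878_at of Runx1, and in the last the high 18S arrays were the lower ones. Tbx21, Eomes and Gata3 were not among them.

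Bcl6, the repressor that directs follicular helper cells, was level. Its bright probe set 1421818_at read 2057, 1838, 1945, 1629 and 2120.1 in CLP arrays, against 2011, 1667, 1974, 1735 and 1815 in sham arrays, and the groups overlapped almost fully. The log2 fold change was 0.06, and its 95% interval of -0.16 to 0.27 leaves room for differences within that range (limma adjusted p = 0.938). Probe set 1450381_a_at was not tested, with 60.6 to 80.6 in CLP arrays and 57.6 to 75 in sham arrays, around the floor.

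Prdm1 (Blimp-1), which opposes Bcl6 and is needed for plasma cells and for Il10 in effector and regulatory T cells, read 360.3, 484, 450.3, 434 and 301 in CLP arrays, against 327, 421, 441, 382 and 374 in sham arrays. The sham arrays lay within the CLP range (0.05, -0.25 to 0.35, adjusted p = 0.961). Bcl6 minus Prdm1 in log2, relative to its sham mean, spanned -0.34 to 0.57 in CLP arrays and -0.26 to 0.38 in sham arrays, with a difference of means of 0.01. Of 5 measured plasma cell markers none passed, and their sum was 7210 to 11153 in CLP arrays and 7912 to 10965 in sham arrays.

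Runx3, the partner of T-bet at the interferon gamma gene, was covered by 2 probe sets, both higher on average. Probe set 1421467_at read 137, 165, 141, 132 and 133 in CLP arrays, against 136, 129, 125, 126 and 113 in sham arrays, and sham replicate 1 lay within the CLP range. Its value was 0.17 (-0.03 to 0.36, limma adjusted p = 0.576). Probe set 1440275_at read 2079.6, 1484, 2166, 1578 and 2779 in CLP arrays, against 2006, 1152, 1927, 1302 and 2517 in sham arrays. The low 18S arrays were the lowest of each group, and within each class the CLP mean was higher (0.12 in the high and 0.32 in the low). Over all arrays it gave 0.20 (-0.31 to 0.71, adjusted p = 0.889).

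Runx1, which represses Gata3 in naive cells and pairs with Foxp3 in regulatory T cells, had 6 tested probe sets and none passed. On average 4 were lower and 2 higher, but 1440878_at and 1452531_at, 2 of the 4, were higher by quantile normalization (0.05 and 0.00), and the first also without scaling (0.01). The furthest from 0 was 1422864_at, with 555, 353, 475, 380.3 and 506 in CLP arrays, against 457, 524, 637, 474 and 710.1 in sham arrays. The groups overlapped, and its log2 fold change was -0.30 (-0.66 to 0.05, limma adjusted p = 0.56). At the other end 1452530_a_at gave 0.17 (-0.05 to 0.40). The brightest, 1440878_at, read 755 to 1096 in CLP arrays and 775 to 1001 in sham arrays (0.00, -0.27 to 0.26). The others, 1422865_at, 1427650_a_at and 1452531_at, lay between -0.17 and 0.15.

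Hlx, a homeobox factor that works with T-bet in Th1 cells, was dim. It read 109, 93.9, 110.4, 123 and 101 in CLP arrays, against 108, 106, 107, 100.4 and 94.4 in sham arrays. The sham arrays lay inside the CLP range (0.05, -0.15 to 0.25, limma adjusted p = 0.939).

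**Figure D4:**
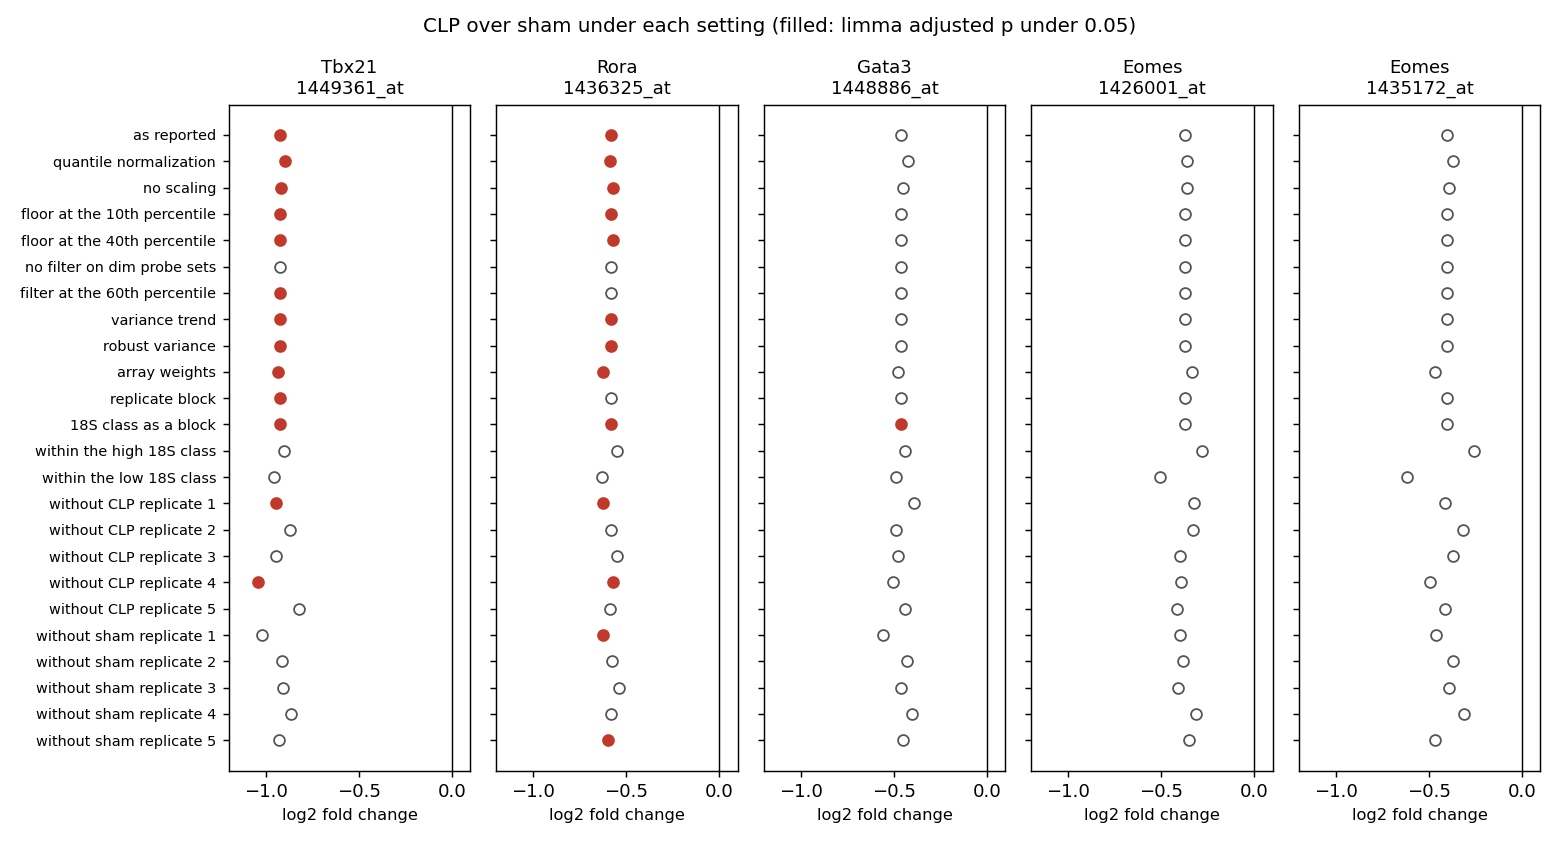
Log2 fold change of CLP over sham for 5 probe sets as reported and under 23 other settings, filled red where limma's adjusted p was under 0.05. Every value lies below 0, and Tbx21 and Rora 1436325_at gain or lose the call with single arrays. Rora 1436325_at was too dim to be tested with the filter at the 60th percentile and is drawn open there.

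The genes around these factors were read from lists chosen with earlier results of these data known, each gene by its brightest tested probe set. Among 13073 genes read so, 0.199% rose and 0.551% fell. Of 26 measured upstream signals, the cytokine receptors, Janus kinases and STATs that switch the factors on, none passed (17 higher, 9 lower, median 0.04, beside 0.00 over all genes). The lowest p values were those of Ifngr1, a chain of the interferon gamma receptor (0.85 ± 0.19, SE, limma adjusted p = 0.0676), Stat3 (0.53 ± 0.18, adjusted p = 0.2495) and Tgfbr1 (-0.40 ± 0.16, adjusted p = 0.37). All CLP arrays lay above all sham arrays for Ifngr1.

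Of 25 measured partners and other regulators none passed (10 higher, 15 lower, median -0.06). At an unadjusted limma p under 0.05 the list held 7 genes, of which Bhlhe40 alone was higher. Over all probe sets tested that p was reached by 2951 of 27022. Id3, which blocks E proteins in naive and regulatory cells, gave -1.31 ± 0.28 (limma adjusted p = 0.0617). Tle3, a corepressor of RUNX and TCF factors, gave -0.38 ± 0.10 (adjusted p = 0.129), and Cbfb, the shared binding partner of Runx1 and Runx3, gave -0.33 ± 0.10 (adjusted p = 0.2005).

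Products of the Th1 and Th2 programmes moved singly. Of 14 measured Th1 genes Gzmb (granzyme B) rose 2.47-fold (1.30 ± 0.21, limma adjusted p = 0.0287) and none fell (7 higher, 7 lower, median -0.02). The Th1 receptors Cxcr6 and Cxcr3 did not pass. Cxcr6 gave -1.02 ± 0.27 (adjusted p = 0.121), with its CLP mean of 6.23 next to the floor of 6.14, while Cxcr3, whose gene T-bet activates, gave -0.35 ± 0.11 (adjusted p = 0.215). At an unadjusted p under 0.05 by limma the list held 4 genes, with Gzmb and Il2 higher and Cxcr6 and Cxcr3 lower. Il2 gave 0.52 ± 0.20 (adjusted p = 0.331). Ifng itself had 1 probe set, at most 101 on any array and too dim to be tested. Of 5 measured Th2 genes Il10, which other helper cells make as well, rose 2.33-fold (1.22 ± 0.22, adjusted p = 0.0349), and Pparg and Il24 lay at 0.12 and 0.07. Il4 and Il13, at most 91.1 and 82 on any array, were too dim to be tested. Every Gzmb and Il10 signal in CLP arrays lay above every sham signal, but both calls were lost with dim probe sets kept in the test (limma adjusted p = 0.116 and 0.139). Gzmb passed without CLP replicate 1, 3 or 4 and was lost without CLP replicate 2 or 5 or any 1 of the sham arrays (1.13 to 1.34, adjusted p of 0.0502 to 0.102). Il10 passed without CLP replicate 1 or 4 and was lost without CLP replicate 2, 3 or 5 or any 1 of the sham arrays (1.04 to 1.30, adjusted p of 0.0567 to 0.111).

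Neither of the remaining programmes held a passing gene. Of 7 measured Th17 genes 5 were higher on average (median 0.09), and Ccr6, the homing receptor of Th17 cells, gave 0.48 ± 0.33 (limma adjusted p = 0.727), with Il17re at 0.10 and Ccl20 at -0.12. Of 14 measured follicular helper genes 8 were higher (median 0.06). The B cell coactivator Pou2af1 gave -0.40 ± 0.14 (adjusted p = 0.268), the inhibitory receptor Btla 0.21 ± 0.09 (adjusted p = 0.372) and Cxcr4 -0.43 ± 0.20 (adjusted p = 0.485).

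**Figure D5:**
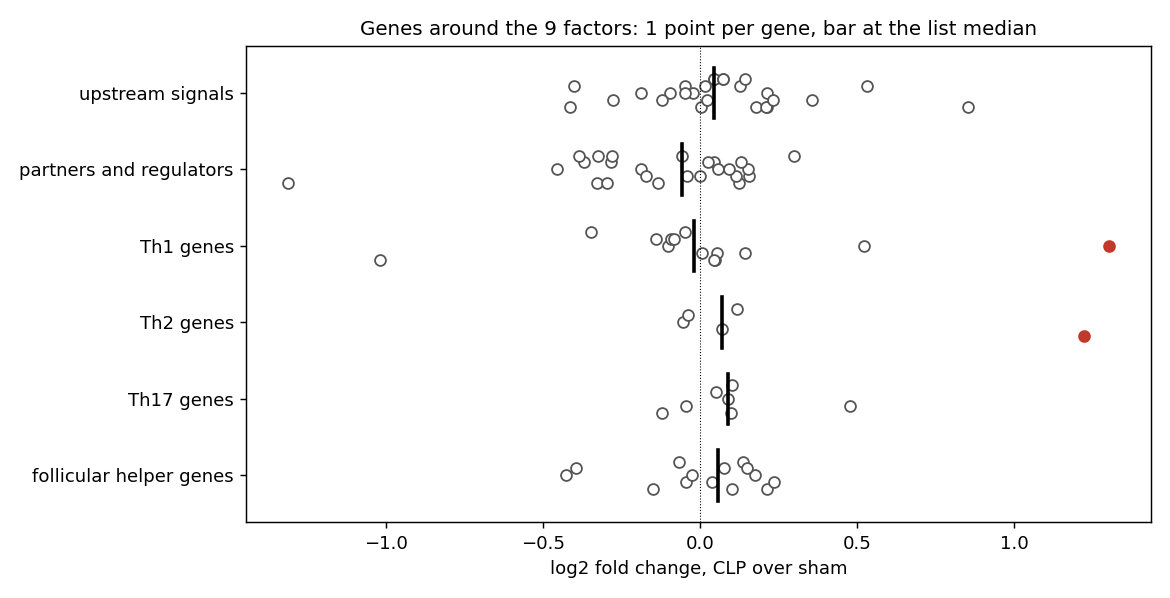
Log2 fold change of CLP over sham for the genes of the 6 lists around the factors, 1 point per gene, with a bar at each list's median. Filled red points passed at a limma adjusted p under 0.05: Gzmb among the Th1 genes and Il10 among the Th2 genes. The medians lie between -0.06 and 0.09.

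Regulatory T cells express Gata3, Prdm1 and Rora, so their markers were read beside these. Of 9 measured, 1 rose and none fell, 4 were higher and 5 lower, and the 5 at an unadjusted p under 0.05 went both ways. Tnfrsf4 (OX40) rose 1.90-fold (0.93 ± 0.18, limma adjusted p = 0.0441). That call was lost with dim probe sets kept in the test (adjusted p = 0.153) and without any 1 array other than CLP replicate 1 or sham replicate 5 (0.86 to 0.94, adjusted p of 0.0605 to 0.136). Foxp3, the factor that defines regulatory T cells, read 392.4 to 815.5 in CLP arrays and 210.9 to 391.6 in sham arrays. Its groups did not overlap, though the nearest arrays were almost level (1.10 ± 0.22, adjusted p = 0.053), and with the 18S class as a block it passed (0.0277). The inhibitory receptor Ctla4 gave 1.44 ± 0.29 (adjusted p = 0.0513, and 0.028 with that block). Nrp1, a surface marker of thymus-derived regulatory T cells, gave -1.29 ± 0.27 with all CLP arrays below all sham arrays (adjusted p = 0.0616, and 0.0263 with that block). Without CLP replicate 1 all 3 passed (Foxp3 1.29, Ctla4 1.65, Nrp1 -1.43), a fit in which 123 probe sets rose and 384 fell. Ctla4 alone also passed without CLP replicate 4 (1.58). Leaving out any other array gave no call, with limma adjusted p up to 0.154 for Foxp3, 0.150 for Ctla4 and 0.174 for Nrp1. With dim probe sets kept in the test it was 0.184, 0.189 and 0.208. The list's summed signal was 8580 to 10339 in CLP arrays and 7568 to 10635 in sham arrays. Of 11 measured genes of CD4 T cell identity 10 were lower on average (median -0.26) and none passed. Over all tested probe sets 48.7% were lower. At an unadjusted limma p under 0.05 the list held 5, Trat1, Cd5, Thy1, Cd28 and Cd247, all lower. Over all probe sets that held for 2951 of 27022. The lowest p values were those of Trat1 (-0.72 ± 0.16, adjusted p = 0.0694), Cd5 (-0.69 ± 0.17, adjusted p = 0.102) and Thy1 (-0.79 ± 0.27, adjusted p = 0.2495). Their summed signal was 21701 to 25088 in CLP arrays and 24612 to 33206 in sham arrays. The part of either list in the values of Tbx21, Gata3 and Rora was not tested.

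Genes whose course over the 10 arrays was most like that of a factor were sought by the mean absolute difference between log2 values, each centred on its own mean. Nearest to Tbx21 were Ift80 at 0.13, Lypd6b at 0.14 and Trat1, a T cell receptor adaptor that is also on the list of CD4 T cell identity, at 0.15, where the median over all genes was 0.49. Their own log2 fold changes were -0.80 (Ift80), -0.96 (Lypd6b) and -0.72 (Trat1), and the first 2 passed (limma adjusted p = 0.0296 and 0.0225) while Trat1 did not (0.0694). Ift80 passed without CLP replicate 1 or 4 and Lypd6b without CLP replicate 1 or 4 or sham replicate 1 or 5, and neither passed with any other array left out (adjusted p of 0.0542 to 0.102) or with dim probe sets kept in the test. Nearest to Gata3 were Spata6, Etfbkmt and Pstk, between 0.08 and 0.09 (median over genes 0.30). Nearest to Rora by its brightest probe set, 1424034_at, were Ino80d, Sh2d1a and Trappc10, between 0.19 and 0.21 (median 0.46). For 1436325_at, added after its values were seen, the nearest was Zfp236 at 0.05, then Atg16l2 at 0.08 and Cggbp1 at 0.09 (median 0.32). The arrays are shared by all genes, and these distances are descriptions. A gene picked for its likeness to a factor tends to share the fold change of that factor. The fold changes and calls of these genes are therefore no separate support.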

How the data were processed

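Each array of the table the authors deposited holds 1 linear intensity for each probe set. The sources used here name neither the software nor the scaling behind it. Per the labels' protocols, labelled cRNA came from a double amplification meant for small samples. Sham titles all give replicate 1, so their suffix from 1 to 5 serves as the replicate number.

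Arrays were brought to the mean of their medians (133.9). Scaled values under their 25th percentile (70.4) were raised to it before log2 was taken. A probe set was tested if it was no control (64 were) and its mean log2 reached the 40th percentile, which 27022 did. The comparison used lmFit and eBayes of limma 3.58.1 under R 4.3.3, two-sided, with Benjamini-Hochberg adjustment over those 27022, called at 0.05, and was tested on simulated data. In the platform annotation 34945 probe sets have 1 symbol, 932 several and 9160 none. RefSeq promoter windows (GRCm38.p6) were matched by symbol for all 9 genes.

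The members, lists and 18S classes (above or below 1000 on the middle 18S control probe set) were chosen with earlier results of these data known. Named genes are all members, the passing genes and the 3 of lowest p in each of the 6 pathway lists, and the 3 nearest genes of Tbx21, Gata3 and Rora. Single genes of the cell marker lists, Il2 of the Th1 list and Bhlhe40 of the partner list were picked after their values were seen. Alternatives were quantile normalization, no scaling, floors at the 10th and 40th percentile, no filter or one at the 60th percentile, a variance trend, robust variance, array weights, a block by replicate number or 18S class, averaged probe sets, each 18S class alone, and each array left out.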

Additional observations from a re-analysis of the deposited data

Results flagged for a closer look

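Over the 23 tested probe sets, 46 groups of 5 arrays were examined for an array far from the others, and 1 was found, where chance gives about 1 in 20 groups. For Rora 1458129_at, CLP replicate 4 was the lowest CLP array at 147, and its gap to the next array was 0.75 of the range of the CLP group. The other CLP arrays read 183 to 196 and the sham arrays 164 to 189.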

How the results depend on the processing

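As reported, 45 probe sets rose and 145 fell, and 2 members were among them. Both members passed with quantile normalization, no scaling, either other floor, a variance trend, robust variance and array weights, which gave 154 higher and 355 lower. With the 18S class as a block 175 rose and 543 fell, and 3 members passed, Gata3 with them. Without a filter 0 rose and 3 fell (3676 at an unadjusted p under 0.05), and 0 members passed, with limma adjusted p of 0.134 for Tbx21 and 0.0647 for Rora 1436325_at. With the filter at the 60th percentile 1 passed, Tbx21, since Rora 1436325_at was then too dim to be tested. Within the high 18S class alone 0 rose, 0 fell and 0 members passed (3611 at an unadjusted p under 0.05), and within the low class likewise 0 (1959). With 4 to 6 arrays these fits have less to go on. Leaving out 1 array gave 0 to 123 higher (0 without sham replicate 3, with 2289 of either direction at an unadjusted p under 0.05), 4 to 384 lower, and 0 to 2 members. Averaging the tested probe sets of each gene, 28 genes rose, 74 fell, and 1 member, Tbx21, passed. Over these settings Tbx21 lay between -1.04 and -0.82.

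Same-numbered CLP and sham arrays deviated from their group means with correlations of 0.176, 0.582, 0.384, 0.181 and 0.0633 over probe sets. Replicate 5 is under 0.1 and the labels tie no numbers to a batch, so the numbers were not taken as pairs, although same-numbered arrays also share their 18S class. Replicate 2 alone correlated best with its own number. With the replicate block 90 rose and 158 fell, and 1 member passed, Tbx21 (limma adjusted p = 0.0375), with Rora 1436325_at at 0.0542.

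Values near 0 changed sign in places, none of them passing. In the low 18S class this held for Rora 1420583_a_at (-0.18), 1424035_at (-0.046), 1441085_at (-0.019), 1455165_at (-0.11) and 1458129_at (-0.0040), and for Runx1 1440878_at (0.031). In the high class it held for Prdm1 (-0.047) and Runx1 1452531_at (0.012). With array weights it held for Rora 1436326_at (0.079) and Runx1 1422865_at (0.018), with quantile normalization for Runx1 1440878_at (0.047) and 1452531_at (0.0049), and with no scaling for 1440878_at (0.0087). Rora averaged over probe sets gave -0.065. Leaving out 1 array gave -0.11 to 0.19 for Rora 1420583_a_at, -0.15 to 0.24 for 1424034_at, -0.011 to 0.095 for 1424035_at, -0.0097 to 0.21 for 1441085_at and -0.054 to 0.085 for 1455165_at. It gave -0.020 to 0.15 for Prdm1, -0.080 to 0.054 for Runx1 1440878_at and -0.066 to 0.011 for 1452531_at. The cause of these shifts was not tested.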
